A study of Homo sapiens with 4 samples.

Results

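The NFAT transcription factors were followed in A549 cells, a human lung adenocarcinoma line in wide laboratory use. The members were the 5 genes named NFATC1, NFATC2, NFATC3, NFATC4 and NFAT5 among 64253 genes in the count table, and each name matched 1 row. In the NFATc2 group cells had been transfected with a pENTER plasmid carrying NFATc2, and in the NFATc2M group they had received the same plasmid carrying NFATc2M, a form of NFATc2 with a deletion in the DNA binding domain. All cells of both groups were cultured in Ham's F12 with OPNc-CM, conditioned medium from HEK-293 T cells that expressed osteopontin isoform c, so neither group stands for untreated or untransfected A549 cells. Each group had 2 libraries, numbered replicates 1 and 2, and the sources used here do not state that they came from separate cultures. Each p-value reflects how far these libraries scatter, over all genes as well as in the gene tested, and that scatter may be technical. The direction of every fold change rests on the names of the count columns, since unnamed columns in the same deposit hold these counts with the groups the other way round.

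NFAT proteins bind DNA through a domain related to that of NF-kB. NFATC1 to NFATC4 encode the calcium-responsive members. In resting cells these are phosphorylated and held in the cytoplasm, the phosphatase calcineurin removes the phosphates when calcium rises, and kinases then return the proteins to the cytoplasm. NFAT5, also known as TonEBP, shares the DNA binding domain but lacks the calcineurin docking region, and is best known for the response to hypertonic stress. The family was first studied in T cells, where it drives cytokine genes, and has since been followed in many solid tumors.

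The difference between the plasmids is shown here at the level of the coding sequence, because it is the only difference in design between the groups. The residues that the study's methods give as deleted in NFATc2M are encoded by 24 bases of NFATC2 within exon 3 of transcript ENST00000371564.8, at chr20:51516832-51516855 on the minus strand of GRCh38. The lines below give these bases in capitals, with 30 bases of coding sequence on either side in lower case, and the stretch of each other member whose translation matched best, all read from the GRCh38 genome with the GENCODE annotation.
NFATC2: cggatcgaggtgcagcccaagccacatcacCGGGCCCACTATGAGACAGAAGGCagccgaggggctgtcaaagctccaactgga
NFATC4: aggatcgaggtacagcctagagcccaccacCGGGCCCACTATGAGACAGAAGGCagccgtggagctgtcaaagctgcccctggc
NFATC1: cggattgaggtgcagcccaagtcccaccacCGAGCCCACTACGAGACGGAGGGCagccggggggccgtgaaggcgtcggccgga
NFATC3: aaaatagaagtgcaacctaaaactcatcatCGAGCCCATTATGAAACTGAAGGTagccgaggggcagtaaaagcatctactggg
NFAT5: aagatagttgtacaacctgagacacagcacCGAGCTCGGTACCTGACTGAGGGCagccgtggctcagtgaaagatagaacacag
In NFATC4 the 24 bases were identical to those of NFATC2, and in NFATC1 and NFATC3 they differed at 4 and 5 positions but encoded the same 8 residues. The differences in NFATC1, with the base of NFATC2 first and positions counted from 1 at the 5′ end of the capitals, were G3A, T12C, A18G and A21G. NFAT5 shared 15 of the 24 bases and 6 of the 8 residues. The stretch lies at chr14:24372532-24372555 in NFATC4, chr18:79433667-79433690 in NFATC1 and chr16:68126539-68126562 in NFATC3, each in exon 3 on the plus strand, and in NFAT5 at chr16:69653354-69653377 in exon 5 on the plus strand. The deleted bases make up 0.869% of the 2763 coding bases of NFATC2, so a count of reads over the whole gene does not separate NFATc2 from NFATc2M transcripts.

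Reads assigned to genes came to 21011786 to 23527259 per library, and levels are given as CPM, gene counts relative to a fixed total per library after TMM scaling. Of 9 markers listed for A549, KRT8, KRT18, ALDH1A1 and AKR1B10 averaged 855 to 3869 CPM in either group, KRT19 66.0 and 69.8 CPM, CDH1 11.6 and 11.1 CPM, EPCAM 2.62 and 2.52 CPM and NAPSA 0.57 and 1.19 CPM in NFATc2 and NFATc2M. SFTPB had at most 4 counts in a library, and CDKN2A and CDKN2B, which are deleted in A549, had 0 counts in every library. Of 7 blood cell markers, PTPRC, CD3E, CD3D and CD2 had 0 counts in every library. The 7 listed HEK-293 T markers summed to 96.8 to 112 CPM in NFATc2 and 96.4 to 98.9 CPM in NFATc2M libraries. Most of this came from INA, with means of 73.9 CPM in NFATc2 and 67.6 CPM in NFATc2M, while NEFM was lowest at 0.49 and 0.72 CPM. The part of these markers in the results was not tested. In bulk samples, a difference in the cells that hold a transcript and a difference in RNA per cell cannot be told apart.

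NFATC2, which is the gene on both plasmids, lies on chromosome 20 from 51386957 to 51562831 and was by far the most abundant NFAT transcript. Its counts were 47791 and 58522 in NFATc2 libraries, against 54601 and 52689 in NFATc2M libraries. As CPM these were 2209 and 2519 in NFATc2, against 2578 and 2432 in NFATc2M. The groups overlapped, with NFATc2 replicate 1 lowest and NFATc2 replicate 2 between both NFATc2M libraries. Its log2 fold change, NFATc2 against NFATc2M, was -0.084 with a 95% interval from -0.28 to 0.12 (edgeR adjusted p = 0.67), which spans ratios from 0.82 to 1.08, and it was 0.012 without NFATc2 replicate 1. By CPM NFATC2 ranked between 26 and 33 among the 17459 genes tested. It held 94.4% and 94.6% of all NFAT reads in NFATc2 libraries, against 95.9% and 95.6% in NFATc2M libraries. There was no library without either plasmid, and reads of the plasmid and of the chromosomal gene cannot be told apart in these counts. The microRNA gene MIR3194, which lies inside NFATC2 on the same strand and shares no exonic base with it, had at most 1 count in a library.

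**Figure D1:**
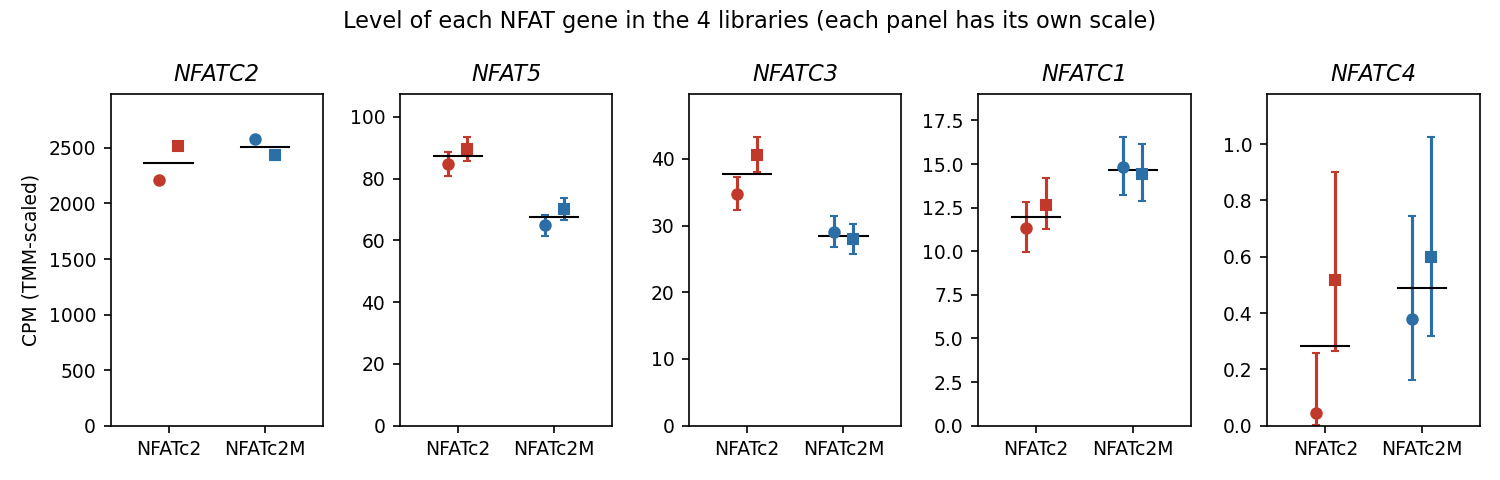
CPM of the 5 NFAT genes (vertical axes, each panel on its own scale from 0) in NFATc2 libraries (red) and NFATc2M libraries (blue), with circles for replicate 1, squares for replicate 2, bars for exact 95% Poisson intervals of the count and black lines for group means. NFAT5 and NFATC3 were higher in both NFATc2 libraries (84.8 and 89.6 CPM for NFAT5) than in both NFATc2M libraries (64.8 and 70.1 CPM), NFATC1 was lower, and NFATC2 and NFATC4 overlapped.

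Of the 5 members, NFAT5 passed the test and was higher in NFATc2 than in NFATc2M samples, and NFATC3 had a difference of like size that did not pass. A gene was called at a Benjamini-Hochberg adjusted p of 0.05 over all genes tested and an absolute log2 fold change of at least 0.26. By this rule 1 of 5 members was called, against 8.64% of the 17459 genes tested (4.9% higher and 3.73% lower in NFATc2), so the family's share rests on 1 gene. Over all genes 856 were called higher and 652 lower in NFATc2, against 662 and 864 with upper quartile scaling, 556 and 707 with library size only, and 9 and 64 without NFATc2M replicate 1. The CPM of 3 members, NFAT5, NFATC3 and NFATC1, did not overlap between the groups, which was true of 53.1% of all genes tested (27.2% higher and 26% lower in NFATc2). The median log2 fold change over all genes tested was 6.1e-04.

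NFAT5 lies on chromosome 16 from 69565094 to 69704666. Its counts were 1834 and 2081 in NFATc2 libraries, against 1373 and 1519 in NFATc2M libraries, or 87.2 ± 3.39 CPM in NFATc2, against 67.5 ± 3.74 CPM in NFATc2M (SD, n = 2 each). Both NFATc2 libraries stood above both NFATc2M libraries. The log2 fold change was 0.37 ± 0.12 (SE; edgeR quasi-likelihood test, adjusted p = 0.031), a ratio of 1.29 with a 95% interval from 1.10 to 1.52. Fold changes over all genes went down with the GC content of the exons (Pearson's r = -0.46 over 17163 genes, themselves no replicates), and the exons of NFAT5 had 38.9% GC, against a median of 48.7% over the genes tested. With GC content and exonic length taken out of each library as a smooth offset, the log2 fold change of NFAT5 was 0.10 and the call was lost (adjusted p = 0.59 from edgeR; 0.019 to 0.60 over the 16 alternative fits, 9 of which kept the call). The call was also lost when either NFATc2 library was left out (log2 fold change 0.41 without replicate 1 and 0.32 without replicate 2) and without NFATc2M replicate 1 (0.31).

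NFATC3 encodes NFAT4, a calcium-regulated member found in many tissues, and lies on chromosome 16 from 68084751 to 68229259. Its counts were 751 and 944 in NFATc2 libraries, against 614 and 606 in NFATc2M libraries, or 37.7 ± 4.18 CPM in NFATc2 and 28.5 ± 0.72 CPM in NFATc2M (SD, n = 2 each). The groups did not overlap, and the NFATc2 libraries lay further apart than the NFATc2M libraries. The log2 fold change was 0.40 ± 0.14 (SE; edgeR quasi-likelihood test, adjusted p = 0.059), a ratio of 1.32 with a 95% interval from 1.09 to 1.61, and it did not pass. Its exons had 46.2% GC, and with the GC and length offset the log2 fold change was 0.33 (adjusted p = 0.15 from edgeR; 0.048 to 0.53 over 16 alternative fits). In the current annotation 31.8% of the exonic bases of NFATC3 lie opposite exons of ENSG00000262160, a long noncoding RNA gene on the other strand. That gene was counted 331 and 406 times in NFATc2 libraries, against 242 and 312 times in NFATc2M libraries, a log2 fold change of 0.34 (adjusted p = 0.24 from edgeR). The strand setting of the counting is not given in the sources used here, so the reads of both genes cannot be told apart. Every other annotated gene in the count table that overlaps a member had at most 8 counts in a library, with the splicing regulator ESRP2 the highest.

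NFATC1 encodes NFAT2, which is known to be induced by NFAT proteins in lymphocytes and osteoclasts, and lies on chromosome 18 from 79395856 to 79529325. Its counts were 245 and 294 in NFATc2 libraries, against 314 and 313 in NFATc2M libraries, or 11.99 ± 0.94 CPM in NFATc2 and 14.6 ± 0.27 CPM in NFATc2M (SD, n = 2 each). Both NFATc2 libraries were below both NFATc2M libraries, by less than the test could call. The log2 fold change was -0.29 ± 0.19 (SE; edgeR quasi-likelihood test, adjusted p = 0.36), a ratio of 0.82 with a 95% interval from 0.63 to 1.06. The exons of NFATC1 had the highest GC content of the family, 59.0%, and with the GC and length offset the log2 fold change was -0.081 (adjusted p = 0.85 from edgeR; 0.29 to 0.85 over 16 alternative fits).

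NFATC4 encodes NFAT3, known from heart and brain, and lies on chromosome 14 from 24365673 to 24379604. It was at the limit of detection, with counts of 1 and 12 in NFATc2 libraries, against 8 and 13 in NFATc2M libraries. The 2 NFATc2 libraries differed from each other by more than the groups did. The log2 fold change was -0.76 ± 0.81 (SE; edgeR quasi-likelihood test, adjusted p = 0.62), a ratio of 0.59 with a 95% interval from 0.20 to 1.78. Counts summed over a group and scaled by depth gave a ratio of 0.59 of NFATc2 over NFATc2M (0.27 to 1.24, exact 95% limits for counting error alone). These counts are too few to show a difference of either sign.

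**Figure D2:**
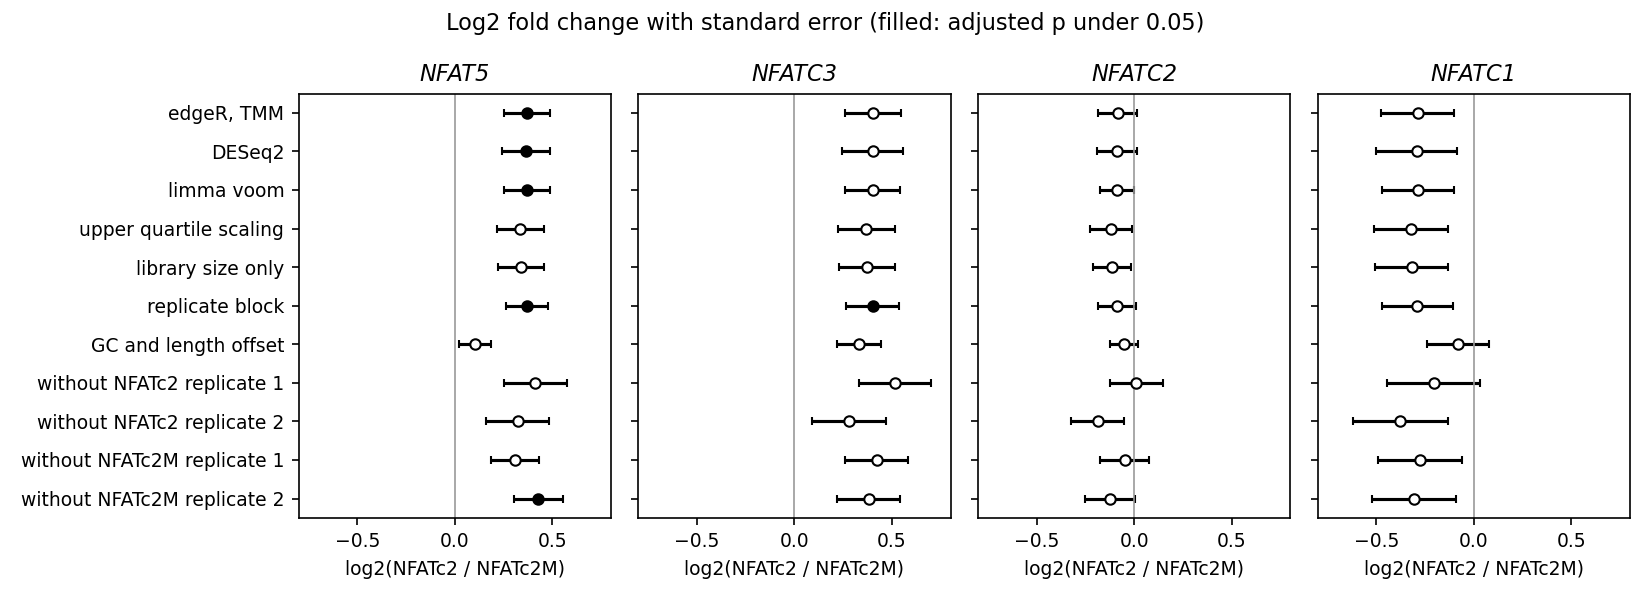
Log2 fold change of NFATc2 over NFATc2M (horizontal axes) for NFAT5, NFATC3, NFATC2 and NFATC1 from edgeR with TMM scaling and from 10 of the alternatives (rows), with standard errors as bars and filled points at an adjusted p under 0.05. NFAT5 was called in the top row at 0.37 and moved to 0.10 with the GC and length offset, NFATC3 moved to 0.33 there, and NFATC2 lay between -0.19 and 0.012 in all rows.

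Levels of different genes were compared per kilobase of annotated exons. NFATC2 stood first with 285 ± 26.4 CPM per kilobase in NFATc2 and 302 ± 12.5 CPM per kilobase in NFATc2M (SD, n = 2 each). The plasmids carry a coding sequence, and over the coding bases alone NFATC2 had 800 and 912 CPM per kilobase in NFATc2 libraries, against 933 and 880 in NFATc2M libraries. NFAT5 and NFATC3 came next and did not differ from each other beyond their spread, with NFAT5 over NFATC3 per kilobase at 1.06 and 0.96 in NFATc2 libraries, against 0.97 and 1.09 in NFATc2M libraries. NFAT5 had 4.30 ± 0.17 CPM per kilobase in NFATc2 and 3.33 ± 0.18 in NFATc2M, close to the middle of all genes tested (52.5 and 54.0 percentile in NFATc2, against 46.8 and 47.9 in NFATc2M). NFATC3 had 4.28 ± 0.47 CPM per kilobase in NFATc2 and 3.23 ± 0.08 in NFATc2M. NFATC1 followed with 1.32 ± 0.10 in NFATc2 and 1.61 ± 0.03 in NFATc2M, so NFATC3 exceeded it by 1.99-fold to 3.31-fold in every library. NFATC4 was last, at most 0.071 CPM per kilobase. Over all annotated exons, NFATC2 had 63.8 and 68.8 times the CPM per kilobase of NFAT5 in NFATc2 libraries, against 97.3 and 84.9 times in NFATc2M libraries. These ratios depend on the length used, and would be larger with NFATC2 taken over its coding bases alone.

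Ratios between members within a library do not depend on how libraries are scaled against each other. The count of NFATC3 over that of NFATC1 was 3.07 and 3.21 in NFATc2 libraries, against 1.96 and 1.94 in NFATc2M libraries. NFAT5 over NFATC1 was 7.49 and 7.08 in NFATc2, against 4.37 and 4.85 in NFATc2M. Both ratios separated the groups by more than the replicates differed, while NFAT5 over NFATC3 overlapped at 2.44 and 2.20 in NFATc2, against 2.24 and 2.51 in NFATc2M. NFAT5 and NFATC3 were higher in NFATc2 with no overlap in CPM, as were 27.2% of all genes tested, and NFATC1 was lower, as were 26%. A ratio of any such higher gene over any such lower gene cannot overlap between the groups, so these separations add nothing to those of the single genes. An exact two-sided permutation test over 2 against 2 libraries gave p = 0.333 for both of the first ratios, the smallest p this design allows, and p = 0.667 for the third, so none of the 3 can pass. The ratios do depend on GC content and length, since with that offset the log2 fold change of NFATC3 exceeded that of NFATC1 by 0.41, against 0.69 without it, and that of NFAT5 exceeded that of NFATC1 by 0.18, against 0.66. Leaving NFATC2 out, NFAT5 made up 64.8% and 62.5% of the reads of the other 4 genes in NFATc2 libraries, against 59.5% and 62.0% in NFATc2M libraries. NFATC1 made up 8.65% (exact 95% binomial interval 7.64% to 9.75%) and 8.83% (7.88% to 9.84%) of them in NFATc2 libraries, against 13.6% (12.2% to 15.1%) and 12.8% (11.5% to 14.2%) in NFATc2M libraries. These intervals cover counting error only.

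**Figure D3:**
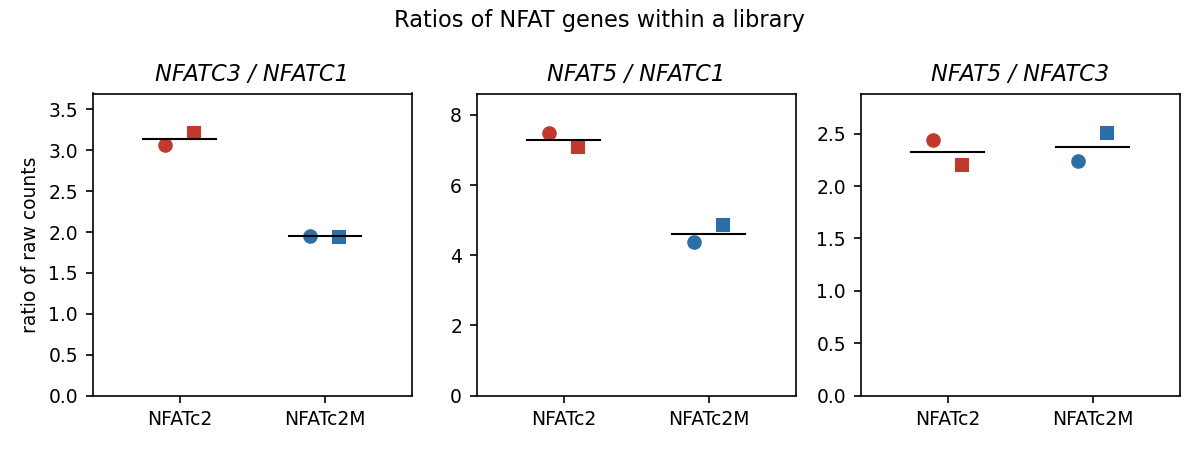
Ratio of raw counts of 2 NFAT genes within a library (vertical axes, from 0) in NFATc2 (red) and NFATc2M libraries (blue), with circles for replicate 1, squares for replicate 2 and black lines for group means. NFATC3 over NFATC1 was 3.07 and 3.21 in NFATc2 libraries, against 1.96 and 1.94 in NFATc2M libraries, and NFAT5 over NFATC3 overlapped.

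The start-site windows of NFATC3 and NFATC1 are shown because the ratio of these genes separated the groups. RefSeq windows of 300 bases on GRCh38.p14 were found for 4 of the 5 members, 8 windows in all, and NFAT5 had none. The NFATC3 window and the second NFATC1 window lie wholly after the first base of the gene as given above. GGAAA, the core that NFAT proteins bind, was searched on both strands (GGAAA or TTTCC) with no other motif, and 61.2% of the 35116 windows of this length hold it at least once. The capitals mark it in the windows below, at chr16:68085120-68085419, chr18:79395680-79395979 and chr18:79400049-79400348, all on the plus strand.
NFATC3: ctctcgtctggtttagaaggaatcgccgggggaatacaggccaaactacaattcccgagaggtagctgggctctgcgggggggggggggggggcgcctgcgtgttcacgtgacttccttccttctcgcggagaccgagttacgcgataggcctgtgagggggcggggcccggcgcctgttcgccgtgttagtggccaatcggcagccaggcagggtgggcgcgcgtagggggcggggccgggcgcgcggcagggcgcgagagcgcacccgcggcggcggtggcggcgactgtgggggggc
NFATC1 first window: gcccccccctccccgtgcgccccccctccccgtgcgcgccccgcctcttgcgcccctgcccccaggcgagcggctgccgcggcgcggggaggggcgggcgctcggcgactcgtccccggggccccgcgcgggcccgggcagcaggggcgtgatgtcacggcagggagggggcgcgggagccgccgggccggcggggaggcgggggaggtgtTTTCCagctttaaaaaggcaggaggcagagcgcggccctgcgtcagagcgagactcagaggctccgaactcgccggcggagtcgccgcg
NFATC1 second window: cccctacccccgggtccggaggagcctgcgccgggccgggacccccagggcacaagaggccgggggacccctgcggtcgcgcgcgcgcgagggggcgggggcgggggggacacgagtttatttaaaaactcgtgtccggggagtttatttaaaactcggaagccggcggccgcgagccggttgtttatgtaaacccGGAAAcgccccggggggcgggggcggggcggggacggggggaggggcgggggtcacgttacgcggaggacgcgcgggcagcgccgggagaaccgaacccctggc
NFATC3 held 0 matches and each NFATC1 window 1. The windows of NFATC2 held 3 and 0 matches, and those of NFATC4 held 1, 0 and 0. A match is a description of these letters, and binding was not measured here.

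The genes whose pattern over the 4 libraries lay nearest to a member were named by the root mean square difference of centred log2 CPM. For NFAT5 these were ELF1 (0.0036) and DOCK10 (0.0052), for NFATC3 LRRC28 (0.018) and ATF7 (0.018), for NFATC1 SEPTIN8 (0.0050) and TRAIP (0.015), and for NFATC2 SNRNP200 (0.0072) and SYDE1 (0.0083). With 4 libraries such likeness is common, since 334 genes lay within 0.05 of NFAT5, 57 of NFATC3, 189 of NFATC1 and 359 of NFATC2. NFATC4 had no gene within 0.05, and its nearest, FAM131A and AGAP9, lay at 0.56 and 0.61.

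Among 38 genes that act on NFAT proteins, 34 were tested, of which 5 were called higher and 1 lower in NFATc2, with a median log2 fold change of 0.082. Over all genes tested 8.64% were called, 4.9% higher and 3.73% lower. The share of this list was above that for genes called higher (5 of 34) and not for genes called lower (1 of 34), which was not tested. The lists of related genes together had 11 of 111 distinct tested genes called, near the share over all genes. PPP3R1, the regulatory subunit of calcineurin, had 77.1 and 70.7 CPM in NFATc2 libraries, against 45.7 and 60.7 CPM in NFATc2M libraries (log2 fold change 0.47 ± 0.12 SE, edgeR adjusted p = 0.0075). PPP3CB, a catalytic subunit named after its values were seen, rose by 0.43 on the same scale (adjusted p = 0.048 from edgeR), and its sister PPP3CA had 0.30 and did not pass (adjusted p = 0.18 from edgeR). CHP1, a calcineurin homologous protein that can inhibit the phosphatase, rose by 0.36. On the export side, GSK3B, a kinase that promotes the return of NFAT to the cytoplasm, had 96.6 and 92.7 CPM in NFATc2 libraries, against 64.3 and 71.4 CPM in NFATc2M libraries (log2 fold change 0.48 ± 0.12 SE, edgeR adjusted p = 0.0032). XPO1, the exportin that carries NFAT out of the nucleus, had 354 and 359 CPM in NFATc2 libraries, against 221 and 287 CPM in NFATc2M libraries (log2 fold change 0.49 ± 0.11 SE, edgeR adjusted p = 0.0011). CSNK1D, a casein kinase 1 named after its values were seen, was the gene that fell, by 0.33 on the log2 scale. RCAN1, a calcineurin inhibitor and well known NFAT target, had 17.5 and 17.3 CPM in NFATc2 libraries, against 20.1 and 23.5 CPM in NFATc2M libraries, and did not pass (log2 fold change -0.33, adjusted p = 0.22 from edgeR). The exons of the 5 genes that rose had 38.9% to 46.9% GC and those of CSNK1D 59.7%, and all 6 calls were lost with the GC and length offset and without NFATc2M replicate 1. XPO1 kept its call when either NFATc2 replicate was left out, and the other 5 did not. The call of PPP3CB was also lost with DESeq2, without robust estimation, with upper quartile scaling, with library size only and with no filter on low counts, that of CHP1 with both of these scalings, and that of CSNK1D without robust estimation.

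Of 36 listed targets of the calcium-regulated members, 23 were tested, 0 were called higher and 1 lower in NFATc2, against 8.64% over all genes tested, so the count is not a result about these targets. The median log2 fold change was -0.089. DESeq2 and limma voom also called 0 higher, and at an unadjusted p of 0.05 from edgeR 1 was higher and 5 lower. Of the listed targets, 8 had 0 counts in every library, namely IL2, CCL21, IFNG, FASLG, CD40LG, ENPP2, TNFSF11 and DSCAM, and IL4 had 2 counts in all. CXCL8 (130 to 155 CPM), IL6 (16.1 to 19.9 CPM) and CSF2 (1.76 to 2.60 CPM) were detected and did not pass. GDF15, a stress-induced cytokine, was the gene that fell, with 107 and 90.2 CPM in NFATc2 libraries, against 203 and 163 CPM in NFATc2M libraries (log2 fold change -0.89 ± 0.11 SE, edgeR adjusted p = 3.8e-09). It kept its call with each library left out and with the GC and length offset. PTGS2, the inducible cyclooxygenase, had 515 and 531 CPM in NFATc2 libraries, against 606 and 676 CPM in NFATc2M libraries, and did not pass (log2 fold change -0.29, adjusted p = 0.053 from edgeR). PTGS2 was called lower with DESeq2, limma voom, upper quartile scaling, library size only, the replicate block and the GC and length offset, among others. With that offset CXCL8 was called lower too. VEGFA was called lower with upper quartile scaling and with the replicate block, and ITGA6 was called higher with the replicate block.

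Of 25 listed targets of NFAT5, 19 were tested, 2 were called higher and 0 lower in NFATc2, a share near the 8.64% over all genes tested. The median log2 fold change was 0.040. At an unadjusted p of 0.05 from edgeR 6 were higher and 3 lower, and DESeq2 and limma voom called 2 higher and 0 lower. HSPA4L, a heat shock protein first described in mouse as an osmotic stress protein, had 24.7 and 25.7 CPM in NFATc2 libraries, against 13.5 and 19.2 CPM in NFATc2M libraries (log2 fold change 0.63 ± 0.17 SE, edgeR adjusted p = 0.0081). SLC38A2, an amino acid transporter, had 569 and 599 CPM in NFATc2 libraries, against 364 and 454 CPM in NFATc2M libraries (log2 fold change 0.51 ± 0.10 SE, edgeR adjusted p = 3.3e-04). The best known osmolyte genes did not pass, with log2 fold changes of 0.37 for the inositol transporter SLC5A3, 0.018 for the taurine transporter SLC6A6 and -0.16 for the aldose reductase AKR1B1. SLC6A12 did not pass either (-0.066), and with 5 to 15 counts in a library it was near the limit of detection. The exons of HSPA4L and SLC38A2 had 38.0% and 37.6% GC, and both calls were lost with the GC and length offset and without NFATc2M replicate 1. That of HSPA4L was also lost when either NFATc2 replicate was left out.

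Of 34 listed partners and cofactors of NFAT, 32 were tested, 0 were called higher and 2 lower in NFATc2, a share near the 8.64% over all genes tested (3.73% lower). The median log2 fold change was -0.061. At an unadjusted p of 0.05 from edgeR 2 were higher and 7 lower, and DESeq2 and limma voom called 0 higher and 2 lower. The 2 called were the small MAF proteins MAFK and MAFG, which fell by 0.57 and 0.47 on the log2 scale, both of which were lost with the offset, without NFATc2 replicate 2 and without NFATc2M replicate 1. None of the AP-1 subunits FOS, FOSB, FOSL1, FOSL2, JUN, JUNB and JUND passed, and FOSL1 was called higher with the GC and length offset. The Rel proteins, whose DNA binding domain is related to that of NFAT, had 0 of 5 called by edgeR, DESeq2 or limma voom (1 higher and 2 lower at an unadjusted p of 0.05 from edgeR). REL, a subunit best known from lymphocytes, had the largest log2 fold change of the 5, with 13.8 and 15.3 CPM in NFATc2 libraries, against 7.74 and 12.2 CPM in NFATc2M libraries, and did not pass (0.54 ± 0.20 SE, edgeR adjusted p = 0.066). It was called higher with the replicate block and without NFATc2M replicate 2, where RELB was called lower. RELA had 134 and 130 CPM in NFATc2 libraries, against 137 and 132 CPM in NFATc2M libraries. NFKB2 had 171 and 166 CPM in NFATc2 libraries, against 214 and 192 CPM in NFATc2M libraries, and did not pass (log2 fold change -0.27, adjusted p = 0.10 from edgeR).

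**Figure D4:**
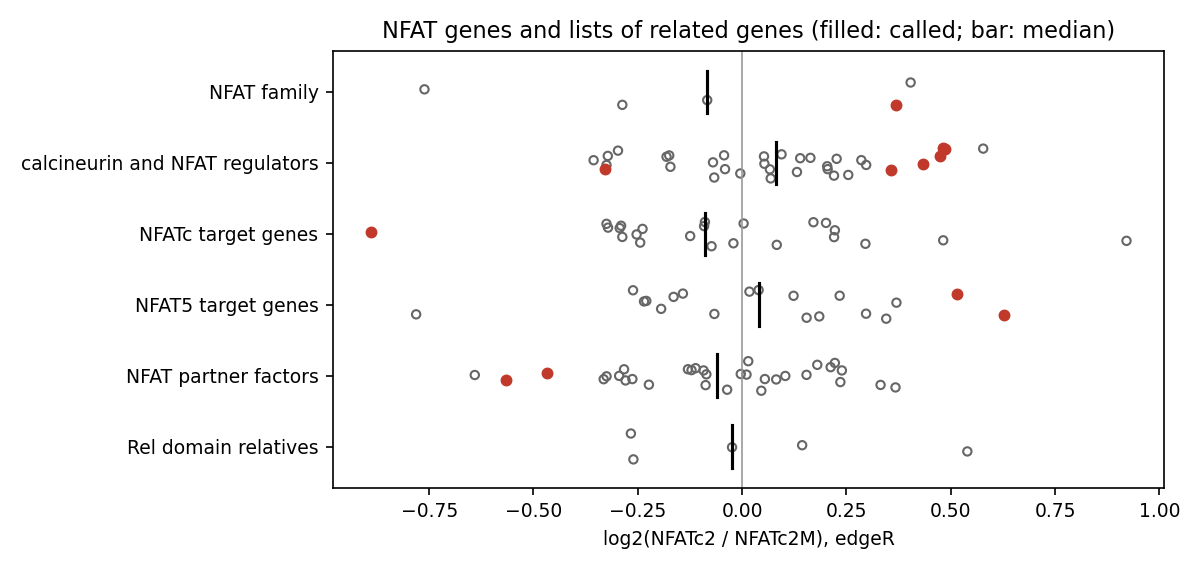
Log2 fold change of NFATc2 over NFATc2M (horizontal axis) for the 5 NFAT genes and the tested genes of 5 lists (rows), with filled points for called genes, open points for others and bars for medians; the vertical scatter within a row carries no value. List medians lay between -0.089 and 0.082, and called genes were found in both directions among the NFAT regulators.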

How the data were processed

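RNA-seq was analysed for 2 NFATc2 and 2 NFATc2M libraries, grouped by the sample titles. Per the methods and labels, the authors aligned reads to GRCh38 with HISAT2, sorted them with SAMtools 1.18 and used HTSeq 0.11.2 with an Ensembl annotation for counting. What was deposited is the raw count of each gene. The 5 HTSeq categories, 56.4% to 57.4% of each library's total, were left out, and 4 unnamed value columns (identical counts, with NFATc2 and NFATc2M exchanged in order) were not used. Members were found by the file's gene names, and 40995 of the 64253 identifiers took a symbol from the GENCODE annotation, 18392 from the file, and 4866 none.

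The test was edgeR 4.0.16 under R 4.3.3 (filterByExpr, TMM, glmQLFit with robust estimation and legacy=TRUE, glmQLFTest, 2 residual degrees of freedom), with Benjamini-Hochberg adjustment over 17459 genes. CPM use TMM sizes, with SD over 2 libraries. Fits were tried on simulated counts with the same spread for every gene and no GC or length trend, so this does not bear on such trends here. Alternatives were DESeq2 1.42.0, limma voom (limma 3.58.1), other scalings, filters and estimates of the spread, a replicate block, an offset for exonic GC content and length (splines with 5 degrees of freedom), and each library left out. Named were all 5 members, up to 4 called genes with the smallest p in each list (or the 2 with the highest counts), genes overlapping a member, and the 2 nearest patterns per member. PPP3CA, PPP3CB, CSNK1D, RCAN1, PTGS2, CXCL8, IL6, CSF2, VEGFA, ITGA6, REL, RELB, the osmolyte genes, the AP-1 subunits and the targets at 0 were named after their values were seen. The members and lists were chosen with earlier results of these data known. Figures were drawn with matplotlib 3.10.9.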

Additional observations from a re-analysis of the deposited data

How the results depend on the processing

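The 1508 genes called over all genes tested became 995 with DESeq2, 334 with the GC and length offset, 260 with that offset and the replicate block, and 73 to 1963 with 1 library left out, fewest without NFATc2M replicate 1. Higher genes were the majority (856 of 1508) but not with upper quartile scaling (662 higher and 864 lower), library size only (556 and 707), the offset and block (119 and 141), without NFATc2 replicate 1 (245 and 339) or without NFATc2M replicate 1 (9 and 64). The 1 NFAT member called became 0 with either of these scalings, with the offset and with the offset and block (each by edgeR, with 1 or 2 members at an unadjusted p of 0.05), 2 with the replicate block, and 0 to 1 with 1 library left out. The log2 fold change of NFAT5 was 0.34 with upper quartile scaling and 0.34 with library size only, neither of which passed, 0.10 with the offset and 0.10 with the offset and block, and 0.31 to 0.43 with 1 library left out. The cause of these losses was not tested. NFATC3 passed with the replicate block alone (log2 fold change 0.40, adjusted p = 0.048 from edgeR). Without NFATc2 replicate 1 the sign turned for NFATC2 (-0.19 to 0.012 over the 4 libraries left out) and for NFATC4 (-3.26 to 0.081), neither of which passed in any fit. The 11 genes called in the lists became 18 with the replicate block, 4 with the offset, 4 with the offset and block, and 1 to 19 with 1 library left out.

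The replicate numbers were not taken to pair the samples, since 2 pairs are too few to tell, and differences between replicates 1 and 2 correlated with r = 0.053 over 17459 genes between the groups; the replicate block gave 1759 calls. Per kilobase of the longest transcript in place of all exons, the mean CPM were 314 and 333 for NFATC2, 6.13 and 4.75 for NFAT5, 5.95 and 4.50 for NFATC3, and 2.46 and 3.004 for NFATC1, in NFATc2 and NFATc2M libraries in that order, and NFATC4 had 0.086 in NFATc2M; the order of the genes was kept. NFATC4 was below the filter of at least 10 counts in every library, and DESeq2 gave it no adjusted p. Where 1 library remained in a group, its spread was taken from the pair in the other group.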
